A study of Mus musculus with 5 samples.

Results

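The mitochondrial genome of mouse embryonic stem cells was described from every read placed on it in 5 libraries, with 1 library per group. Its 16299 bp were cut into 326 windows of 50 bp, and 216 of them held at least 20 input reads. For comparison, 26772371 autosomal windows of that length held a read in any library. The enriched libraries were made from clones of the E14 line taken from the SIGTR gene-trap library, at passages 11 to 14. MeDIP and hMeDIP each took 2 µg of antibody, against 5-methylcytosine (5mC) and 5-hydroxymethylcytosine (5hmC), to denatured DNA. In MethylCap, 1 µg of fragmented DNA was bound to 2 µg of His6-GST-MBD, a fusion protein that carries a domain for methylated CpG sites, and released with NaCl at 600 mM or 800 mM. The input was chromatin DNA, without antibody, of TNG-A cells, an E14 derivative with an EGFP reporter at the Nanog locus. All cells were grown without feeders with leukaemia inhibitory factor and 10% fetal calf serum. Cell line, preparation and the amount of mitochondrial DNA carried along cannot be told apart in any comparison with this input.

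Mitochondrial DNA is a circle present in many copies per cell, packed without histones. It carries genes on both strands and a noncoding control region from which copying and transcription start. Whether mammalian mitochondrial DNA carries 5mC or 5hmC is disputed. The antibodies bind single strands of denatured DNA, while an MBD binds double-stranded methylated CpG sites, so the pulldowns can read different things from the same molecule. The RefSeq gene table of GRCm38.p6 lists 37 mitochondrial genes, of which 13 encode proteins, 22 encode tRNAs and 2 encode rRNAs. The files are in mm9, so windows are given by position and were not assigned to genes.

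Mitochondrial reads of input filled most of the positions they could occupy, and those of the enriched libraries a smaller part. At most 1 read per position and strand was counted, and a read of 35 bp can start at 32530 places on both strands together. Input had 18249 mitochondrial reads and occupied 56.1% of all places and 84.4% of those in the 216 windows. hMeDIP had 8300 reads and occupied 38.4% of the places in these windows. The 800 mM eluate had 5732 reads (26.5%), MeDIP 3211 (14.9%) and the 600 mM eluate 523 (2.42%). The median window held 92 input reads of at most 100. Input was thus close to the ceiling that the count allows, and every ratio to input was affected by it. A capped input count raises such a ratio, and a capped count of the enriched library lowers it. The 800 mM eluate stood apart from the other libraries in its profile and in a column of the files, and its main values are given with and without its high stretches. Whether its mitochondrial reads come from the same mitochondrial DNA as those of the other libraries was not tested, and each of its values on this genome holds only as far as they do.

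Long stretches held no reads. Between the start positions 6393 and 11008 of chromosome M, 4615 bp or 28.3% of the genome, none of the 4 enriched libraries had a read. Input had 10 reads there, all starting between 9795 and 9814. Outside this stretch, 4 gaps of over 100 bp were also shared by all 5 libraries, the longest of 230 bp between the starts 15653 and 15883. A total of 102 windows held no read in any library. Long copies of mitochondrial DNA are known in the mouse nuclear genome, and short reads from them can match both places. Their part in these gaps was not tested.

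**Figure D1:**
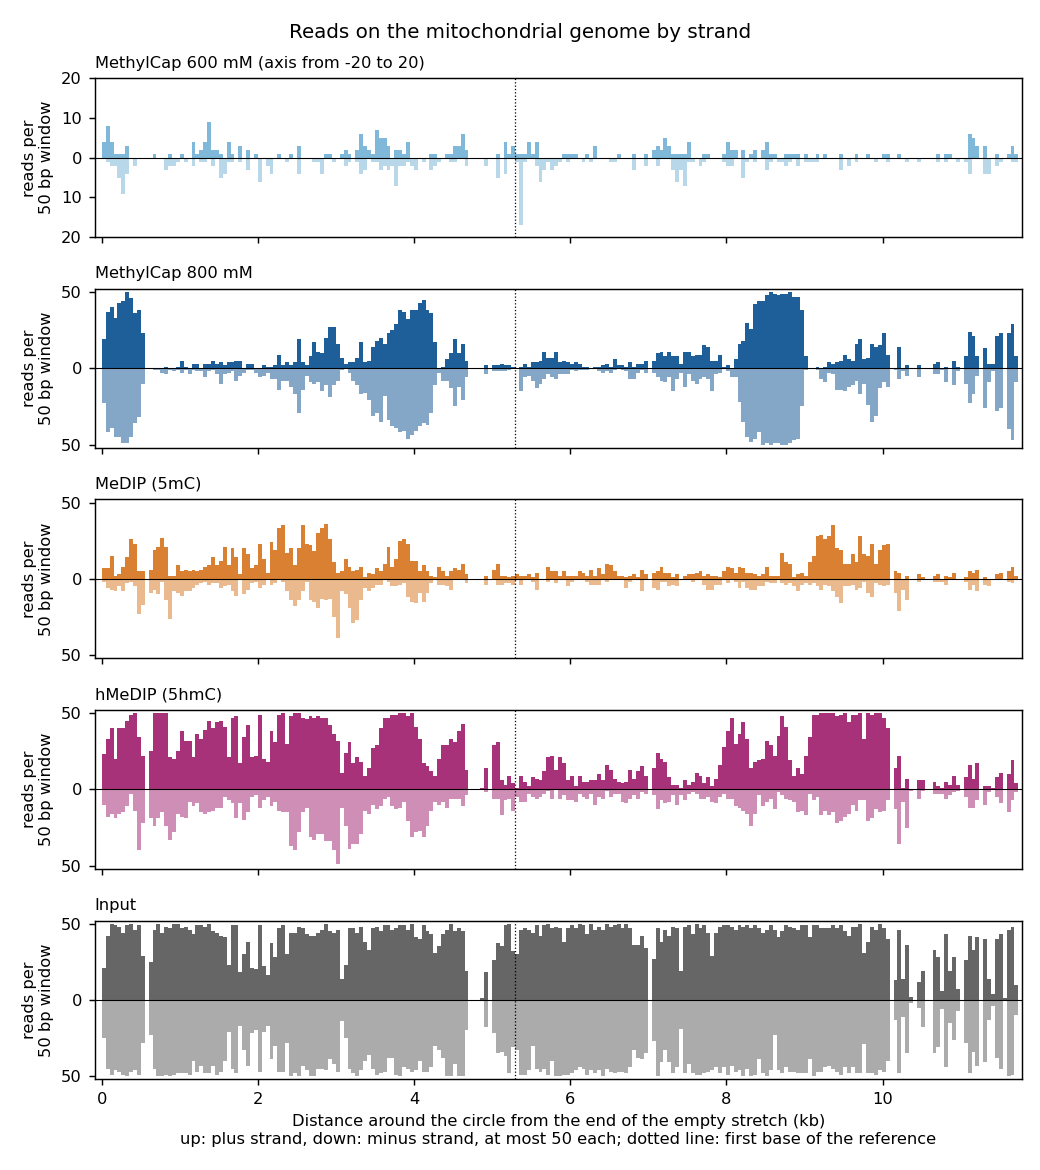
Reads per 50 bp window on the plus strand (up) and minus strand (down) in each library, around the circle from the end of the empty stretch; each strand can hold at most 50 reads per window, and the 600 mM panel has its own axis. Input lies near the ceiling with a median of 92 reads per window, and the 800 mM eluate is dense in a few blocks. The 3 longest of these blocks fall at their far end in the numbering, 1 of them beside a window without reads in any library. Some fall at an end follows from the rule that bounds the blocks. The antibody profiles resemble each other and lie mostly on the plus strand.

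Mitochondrial DNA was far denser than nuclear DNA in every library, and least so in the 600 mM eluate. Input held 1120 reads per kb of the mitochondrial genome against a median of 7.36 per kb in autosomal blocks of the same length, 152.1 times as many. The factor was 184.9 in the 800 mM eluate (86.4 without its high runs, the dense blocks described with the eluates), 84.7 in hMeDIP, 57.3 in MeDIP and 11.1 in the 600 mM eluate. No autosomal block of 144172 held as many reads as the mitochondrial genome in input, MeDIP, hMeDIP or the 800 mM eluate. In the 600 mM eluate, 132 blocks did.

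Scaled to 1000000 reads on chromosomes 1 to 19 (RPM), input had 1023 mitochondrial RPM, the 800 mM eluate 783.3, hMeDIP 457.2, MeDIP 312.9 and the 600 mM eluate 51.2. The ratio to input was 0.766 in the 800 mM eluate, with an exact 95% interval of 0.743 to 0.789, and 0.447 (0.435 to 0.459) in hMeDIP. It was 0.306 (0.295 to 0.318) in MeDIP and 0.05003 (0.0458 to 0.0546) in the 600 mM eluate. These intervals describe counting error alone. The reads carry no molecular identifiers, and no difference has a replicate check. When the reads behind each occupied share were estimated with a Poisson model, the ratios were 0.521, 0.326, 0.125 and 0.0174 in the same order, each below the counted ratio. That model takes each window's reads to fall on its places at one rate, and it put input at 3 times its counted mitochondrial reads.

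**Figure D2:**
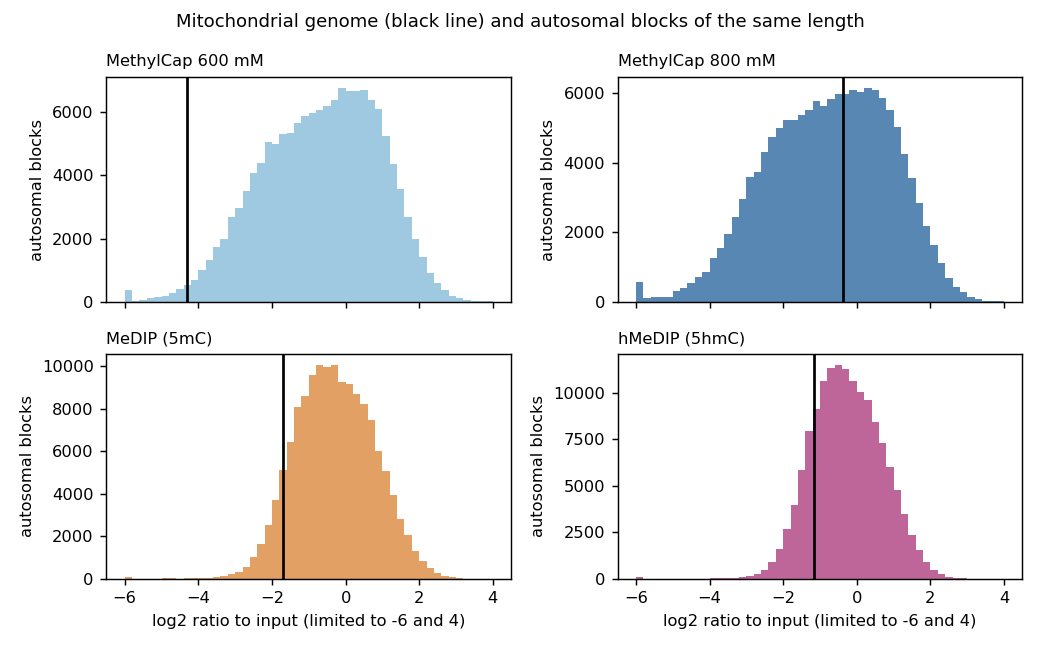
Log2 ratio to input of 144172 autosomal blocks of 16299 bp (histogram) and of the mitochondrial genome (black line) in the 4 enriched libraries. The line lies at the low end for the 600 mM eluate, below the middle for both antibodies, and near the middle for the 800 mM eluate, with the cap on mitochondrial reads not corrected.

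Against autosomal blocks, the 600 mM eluate was low on the mitochondrial genome, and the place of the 800 mM eluate depended on its high runs. Of the autosomal blocks, 1.31% had a ratio to input at or below that of the mitochondrial genome in the 600 mM eluate. The share was 8.73% in MeDIP, 17.9% in hMeDIP and 55.9% in the 800 mM eluate, or 36.8% without its high runs. These shares do not correct the cap on mitochondrial reads. With the Poisson estimate on the mitochondrial side, MeDIP was at 0.125, below the 5th percentile of its autosomal blocks (0.254). hMeDIP was then at 0.326, near its 5th percentile (0.296). The ratio to input of the median autosomal block was 0.679 for the 600 mM eluate and 0.628 for the 800 mM eluate, 0.8001 for MeDIP and 0.808 for hMeDIP. With that median set to 1, the 800 mM eluate stood at 1.22-fold on the mitochondrial genome. This direction turned in 3 alternatives added after the data were seen, to 0.629-fold without the high runs, 0.575-fold without windows in which over 10% of reads had a 1 in column 4, and 0.829-fold with the Poisson estimate on the mitochondrial side.

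The same was counted over single windows, with a library's count set to at least 3 reads. All 216 windows were at 0.5-fold of input or less in the 600 mM eluate, against 36.9% of autosomal windows. The autosomal windows are the 298 windows of 50 bp that also held at least 20 input reads, which are few and unusually dense. At 800 mM, 121 mitochondrial windows (56.0%) were that low, against 42.6% of autosomal windows, and 26 (12.04%) were at 2-fold or more, against 37.9%. The 171 windows outside the high runs held all 121 of the former and none of the latter. High runs are chosen by the same ratio to input, at a level above 0.5-fold. The first of these counts was thus fixed by that choice, and the second nearly so. MeDIP was at 0.5-fold or less in 164 windows (75.9%, autosomal 43.3%) and hMeDIP in 117 (54.2%, autosomal 42.6%). No window was at 2-fold or more of input in the 600 mM eluate, MeDIP or hMeDIP, where 11.1%, 19.1% and 0.671% of autosomal windows were. Under the cap a full window could reach 2-fold in 74, 65 and 20 of the 216 windows, so nothing is read from these counts of 0.

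The eluates differed more on the mitochondrial genome than in nearly all autosomal blocks. The 800 mM eluate had 15.3 times the mitochondrial RPM of the 600 mM eluate (13.99 to 16.8), from 5732 and 523 reads. The median autosomal block was at 0.960, and 14 of 143929 blocks were at 15.3 or more. The factor was 14.8 on the plus strand and 15.8 on the minus strand. With reads at 600 mM set to at least 3 per window, 167 of 216 windows (77.3%) were 2-fold or more higher at 800 mM, against 1.01% of autosomal windows, and none was 2-fold lower, against 7.05%. Outside the high runs, 122 of 171 windows (71.4%) were 2-fold or more higher.

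Reads of the 800 mM eluate were densest in a few blocks, and its excess over the 600 mM eluate was also present outside them. Runs were defined as 3 or more neighbouring windows in which a library's ratio to input was at least 1.5 times its ratio over the whole mitochondrial genome. The 800 mM eluate had 5 such runs with 45 windows, which held 59.7% of its mitochondrial reads in 20.8% of the windows. That share is high by choice of the runs. By the same rule MeDIP held 53.3% of its reads in 26.9% of the windows. For hMeDIP it was 31.2% in 18.06%, and for the 600 mM eluate 24.5% in 9.26%. Without its high runs the 800 mM eluate was at 8.55 times the 600 mM eluate and at 0.396-fold of input.

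The longest run lay at 2901–3700 on chromosome M. It held 1409 reads at 800 mM, 679 on the plus and 730 on the minus strand, which filled 88.06% of its places. MeDIP filled 9.44% of the same places, hMeDIP 35.9%, the 600 mM eluate 2.19% and input 92.4%. Its densest window by ratio, at 3301–3350, held 98 reads at 800 mM, 69 in input, 35 in hMeDIP, 5 in MeDIP and 1 at 600 mM. The 800 mM ratio to input there was 3.46 (2.52 to 4.78), and the next windows, 3351–3400 and 3401–3450, were at 2.72 and 2.60. As the highest windows of this library, they are extremes of the values that rank them.

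The far end of this run was steep on both strands, from 182 to 9 reads on the plus and from 167 to 2 on the minus strand. The 4 windows at 3501–3700 held 349 reads at 800 mM and the 4 windows after it, at 3701–3900, held 11. Input hardly changed there, with 380 and 372 reads, and both antibodies went up, hMeDIP from 96 to 186 and MeDIP from 38 to 71. Their rise was on the plus strand alone, from 52 to 154 in hMeDIP and from 18 to 56 in MeDIP. On the minus strand they went from 44 to 32 and from 20 to 15. The window at 3751–3800 had no 800 mM read, which allows up to 3, but 80 input and 37 hMeDIP reads. The windows at 1–50 and 951–1000 likewise had none, with 63 and 96 input reads. The near end was more gradual, with 60 reads at 2701–2900 and 290 at 2901–3100.

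The other long runs also fell at their far end. The run at 11001–11550 held 824 reads at 800 mM (74.9% of places), beginning where the empty stretch ends. Its last 4 windows held 266 reads and the next 4, at 11551–11750, held 2, while hMeDIP had 234 and 187 and input 344 and 239. The window just after the run, at 11551–11600, held no read in any library. The 800 mM counts already fell within the last 4 windows of the run, with 91, 72, 70 and 33 reads. Input had 97, 92, 98 and 57 there. The run at 14651–15250 held 887 reads at 800 mM (73.9% of places), with 302 reads in its last 4 windows and 54 in the next 4. At its near end the 4 windows before it held 181 and its first 4 held 268. The 2 short runs, at 6301–6450 and 14451–14600, filled 52% and 49% of their places. Elsewhere the 800 mM eluate was sparse, and 105 windows in 11 runs were at or below 1/1.5 of its whole-genome ratio. The longest of these was 34 windows at 1–1700, with 7.37% of places filled against 91.2% in input.

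The 600 mM eluate was sparse. Of its 20 windows in high runs, 9 (45%) lay in high runs of the 800 mM eluate, which take up 20.8% of the 216 windows. These 9 are 20% of the windows in high runs of the 800 mM eluate, and high runs of the 600 mM eluate take up 9.26% of the 216. It held 0 to 18 reads per window with a median of 2, and 55 of the 216 windows had none. Its highest window, at 51–100, held 18 reads, 17 of them on the minus strand, against 16 reads at 800 mM, 6 in MeDIP and 95 in input (0.331-fold, 0.188 to 0.551). The windows next in rank, at 6051–6100 and 12751–12800, held 4 reads each. The windows at 801–850, 1051–1100 and 1101–1150 held none, against 94 to 96 input reads. The 600 mM and 800 mM profiles were weakly alike across the 216 windows, with Spearman's rho of 0.225. This is a description of windows that share molecules, libraries and the placement gaps, and not a test. At 11001–11550 the 600 mM eluate filled 4.27% of places, at 1.71 times its whole-genome ratio to input, whereas at 2901–3700 it filled 2.19%, at 0.826 times.

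Column 4 of the files, a 0 or 1 per read which no source used here explains, also set the 800 mM eluate apart. A 1 stood in 1646 of 6390 deposited mitochondrial reads at 800 mM, or 25.8% (24.7 to 26.9), against 8.14% of its autosomal reads. Input had 5.53% on the mitochondrial genome and 8.45% on autosomes, and the 600 mM eluate 2.82% and 7.85%. MeDIP and hMeDIP had no such read, which on the mitochondrial genome allows up to 0.0934% and 0.0361%. In the 800 mM eluate, 658 mitochondrial places carried 2 reads, and in the 600 mM eluate 8 did, 1 with each value of column 4. All of these were counted once.

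**Figure D3:**
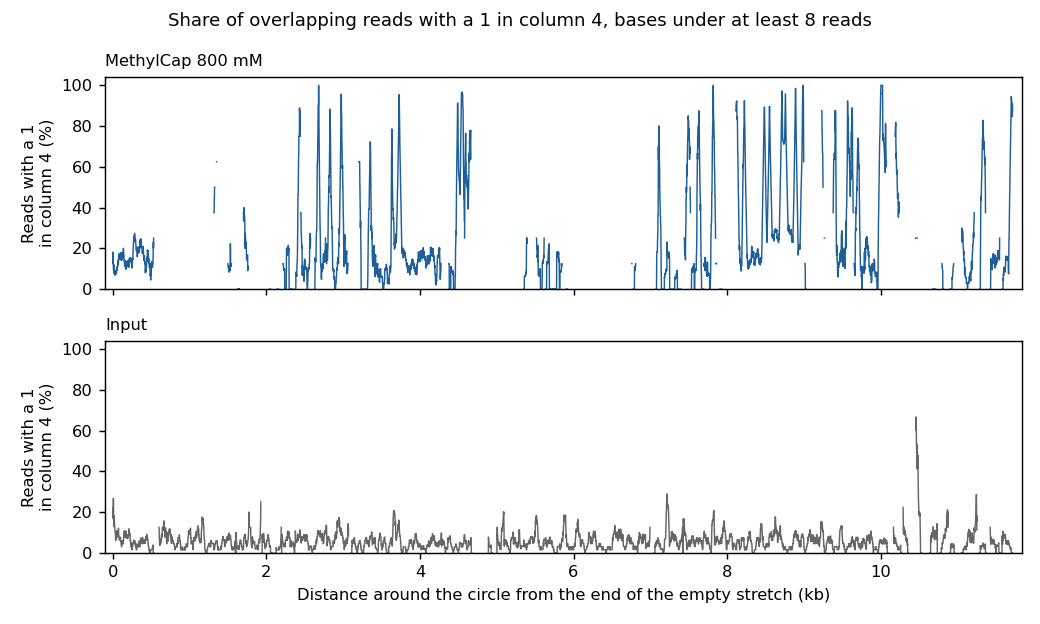
Share of the reads over each base that carry a 1 in column 4, for bases under at least 8 deposited reads, in the 800 mM eluate and in input, around the circle from the end of the empty stretch. At 800 mM the share rises to 80% or more in 30 short spans and has a median of 15.6% over bases, whereas input has a median of 4.76% and no span.

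In the 800 mM eluate these reads were gathered at particular bases. In 30 spans of 1 to 36 bp, at least 80% of the reads over each base carried a 1 (at least 8 reads, limits chosen after the values were seen). Of the 794 reads over the middle base of a span, 727 carried a 1 (91.6%), against 919 of the other 5596 (16.4%). The first of these shares is high by choice of the spans. Input and the 600 mM eluate had no part in that choice. Over the same middle bases, 106 of 1801 input reads carried a 1 (5.89%, 4.84 to 7.07), close to the 5.50% of its other reads, and 2 of 49 reads of the 600 mM eluate did.

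Examples show the size of the contrast. At base 3599, 65 of 66 reads at 800 mM carried a 1 and 6 of 65 in input. At base 3422 the counts were 70 of 72 and 4 of 65, and at base 4716 they were 20 of 20 and 3 of 64. At base 14738 they were 42 of 44 and 8 of 58, and at base 15557 they were 25 of 26 and 2 of 67. The run at 2901–3700 held 7 of the 30 spans and those at 6301–6450 and 14651–15250 held 1 each. The other 21 spans lay outside the high runs. The dense run at 11001–11550 held none, with a 1 in 153 of 963 reads (15.9%). At 800 mM, a 1 stood in 32.4% of reads in windows with under 10% of places filled. The share was 32.5% at 10 to 30%, 29.2% at 30 to 60%, 17.98% at 60 to 80% and 20.4% from 80%. Input had no such span, and its highest share at a base was 66.7% of 9 reads at base 5167. The files hold no read sequences, so what the reads with a 1 share was not tested. Whether another mitochondrial haplotype, or cDNA or DNA of other cells, entered the 800 mM library was not tested either. The 15.3-fold eluate ratio, the 0.766 ratio to input and the high runs are to be read with that limit.

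The hMeDIP library held more mitochondrial reads per nuclear read than the MeDIP library. With 1 library each, antibody and preparation cannot be told apart in this comparison. hMeDIP was at 1.46 times MeDIP in mitochondrial RPM (1.40 to 1.52), where the median autosomal block was at 1.01 and 16.4% of blocks were at 1.46 or more. On the plus strand the factor was 1.62 (1.54 to 1.70) and on the minus strand 1.22 (1.14 to 1.30). In 61 of 216 windows (28.2%) hMeDIP was 2-fold or more above MeDIP with MeDIP set to at least 3 reads, against 7.72% of autosomal windows. In 1 window it was at 0.5-fold or less, against 34.2%. The cap bears on the antibody ratio, since hMeDIP filled all 50 plus strand places in 20 windows and MeDIP in none. With the Poisson estimate the ratio was 2.61.

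**Figure D4:**
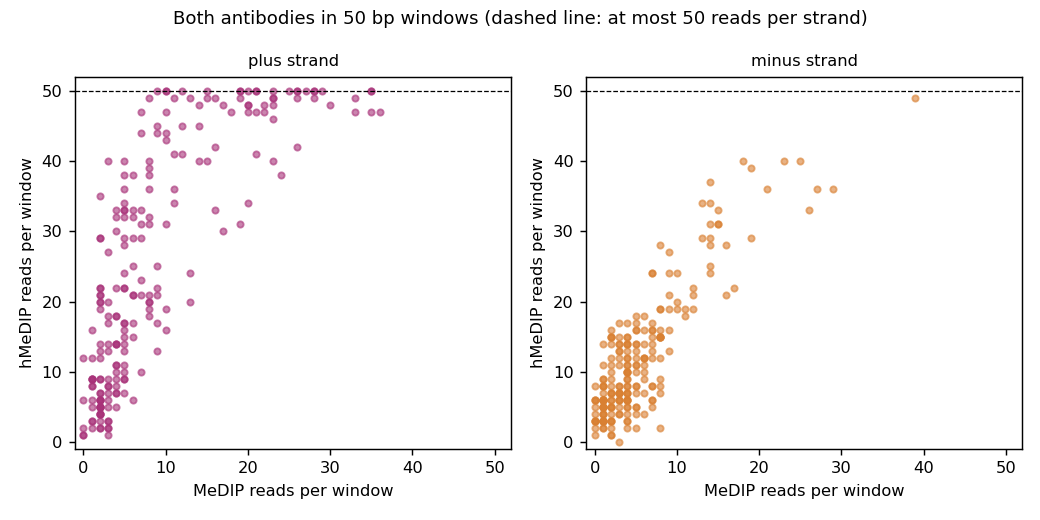
Reads of MeDIP (x axis) and hMeDIP (y axis) in each of 216 windows of 50 bp, on the plus strand (left) and minus strand (right); the dashed line marks the 50 reads a strand can hold. Windows high with one antibody were mostly high with the other, with a rho of 0.837 on the plus and 0.737 on the minus strand, and hMeDIP meets the ceiling on the plus strand.

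Both antibodies were high and low in much the same windows. Across the 216 windows, Spearman's rho between MeDIP and hMeDIP was 0.856 for both strands together, 0.837 on the plus strand and 0.737 on the minus strand, as a description without a test. The rho of hMeDIP was 0.280 with the 800 mM eluate, 0.276 with input and -0.04 with the 600 mM eluate. MeDIP held 1 to 50 reads per window with a median of 11, and hMeDIP 4 to 90 with a median of 37. Of the 39 windows in high runs of hMeDIP, 33 (84.6%) were in high runs of MeDIP, which had 58 windows (56.9% shared). Of the 45 windows in high runs of the 800 mM eluate, 7 (15.6%) were in high runs of hMeDIP, 17.9% of the latter, and 9 (20%) in those of MeDIP, 15.5% of the latter. High runs take up 18.06% of the 216 windows in hMeDIP and 26.9% in MeDIP, so the 800 mM shares were near or below those over all windows.

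The highest level of both antibodies lay at 13001–14000. There MeDIP had 649 reads and filled 32.5% of places, and hMeDIP had 1290 and filled 64.5%. The 800 mM eluate filled 19.6% there and the 600 mM eluate 1.55%. The longest high run of MeDIP, 23 windows at 13151–14300, was at 2.28 times its whole-genome ratio to input, and hMeDIP was at 1.73 times its own over the same windows. The window at 13751–13800 was highest in MeDIP by ratio to input, with 49 reads, and held 77 hMeDIP and 89 input reads (0.957-fold, 0.661 to 1.37). The window at 13851–13900 held 50 MeDIP and 81 hMeDIP reads, and that at 4851–4900 held 14 MeDIP reads. For hMeDIP, the window at 4851–4900 ranked first with 27 reads against 26 in input (1.02-fold, 0.573 to 1.82), and those at 14101–14150 and 13451–13500 held 48 and 90 hMeDIP reads against 48 and 92. The bin with the next most reads of both antibodies was 4001–5000, with 458 MeDIP and 1088 hMeDIP reads.

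Both were low at the start of the numbering and again in the last windows. At 1–1000 MeDIP had 102 reads (5.19% of places) and hMeDIP 285 (14.5%), although input filled 92.9%. At 1001–2000 they had 135 and 324 reads. The lowest MeDIP windows, at 351–400, 301–350 and 15251–15300, held 1 read each against 94, 89 and 61 input reads. The lowest hMeDIP windows, at 151–200, 2201–2250 and 2001–2050, held 5, 6 and 7 reads against 92, 91 and 96. At 16151–16299 hMeDIP filled 16.3% of places and MeDIP 5.68%, against 93.6% in input.

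The balance of the antibodies varied along the molecule, mainly on the plus strand. hMeDIP was at 2.55 times MeDIP on the plus strand at 2001–3000 (1.98 to 3.33) and at 2.60 times at 15001–16000 (2.05 to 3.35). It was at 1.05 times at 13001–14000 (0.939 to 1.18), with 841 hMeDIP reads on the plus strand of at most 1000. On the minus strand the factor ranged from 1.01 at 14001–15000 to 1.44 at 1–1000, and its intervals overlapped in all bins of 1000 bp with at least 20 MeDIP reads. On the plus strand, no other bin had more hMeDIP reads than 13001–14000, and none had more MeDIP reads (451). Whether the ceiling lowered the ratio there was not tested.

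Reads of both antibodies came mostly from the plus strand, and those of the other libraries did not. In hMeDIP, 5612 reads lay on the plus and 2688 on the minus strand, a plus share of 67.6% (66.6 to 68.6). In MeDIP the counts were 1961 and 1250, a share of 61.1% (59.4 to 62.8). Input had 50.2% (49.4 to 50.9), the 600 mM eluate 47.99% (43.6 to 52.4) and the 800 mM eluate 46.4% (45.09 to 47.7), or 44.9% (42.9 to 46.97) without its high runs. On autosomes the plus share was 49.96 to 50.01% in all 5 libraries. A share as high as that of the mitochondrial genome was found in 5.47% of autosomal blocks of 16299 bp with at least 300 reads in hMeDIP (428 of 7827) and in 22.1% in MeDIP (73 of 330). In input the share was 46.8%, 83.2% at 600 mM and 91.9% at 800 mM, with their own mitochondrial shares as the limit. A plus share as high as on the mitochondrial genome thus also occurred in nuclear blocks of both antibody libraries. The limit of 300 reads keeps unusually dense blocks, and not the same set in each library. The median autosomal block held 3.44 reads per kb in MeDIP and 6.01 in hMeDIP. These counts are of high plus shares only.

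**Figure D5:**
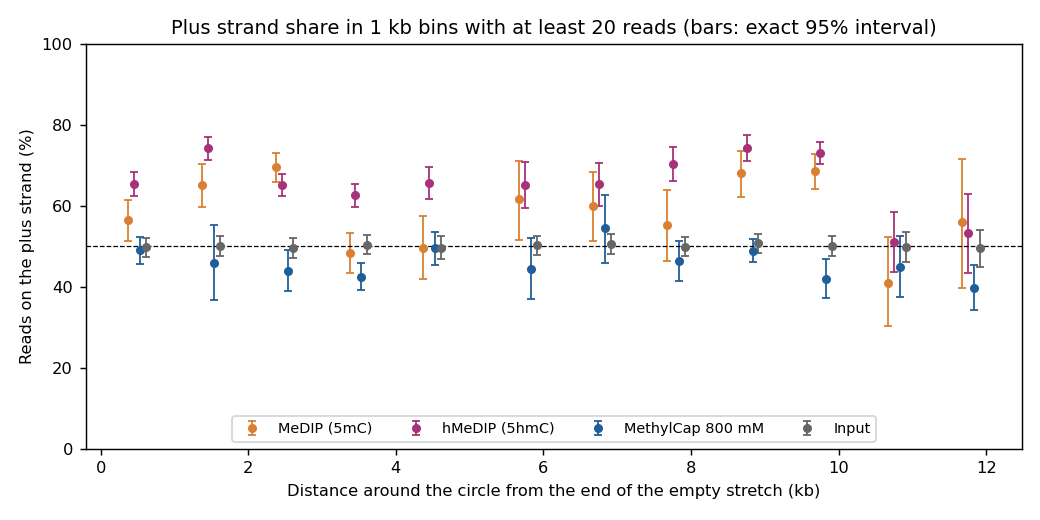
Share of reads on the plus strand in bins of 1000 bp with at least 20 reads, with exact 95% intervals, around the circle from the end of the empty stretch. hMeDIP lies above 50% with its whole interval in 10 of 12 bins and MeDIP in 7 of 12, while input stays between 49.5 and 50.7%.

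The excess of plus reads was found in most bins. The interval of the plus share lay above 50% in 10 of 12 bins for hMeDIP, in 7 for MeDIP and in none for input or the 800 mM eluate. hMeDIP ranged from 51.1% at 5001–6000 to 74.4% at 3001–4000. MeDIP ranged from 41.0% at 5001–6000 to 69.5% at 13001–14000. The 800 mM eluate was below 50% with its whole interval in 4 of 12 bins. The 600 mM eluate ranged from 22.6% of 31 reads at 13001–14000 to 70% of 30 reads at 1001–2000. Window by window, plus exceeded minus in 163 of 216 windows in hMeDIP and in 130 in MeDIP, against 101 in input and 72 in the 800 mM eluate.

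In some windows the minus strand led with both antibodies. Minus exceeded plus in 46 of 216 windows in hMeDIP and in 74 of 216 in MeDIP. Of these, 34 were shared, 73.9% of the former and 45.9% of the latter. Each share was above the share of such windows among all 216. The longest stretch of such shared windows lay at 14151–14450, where MeDIP had 32 plus and 103 minus reads and hMeDIP 110 and 170. At 13951–14100 MeDIP had 20 and 72 and hMeDIP 79 and 101. At 4901–5050 MeDIP had 6 and 42 reads and hMeDIP 30 and 69. Across windows, the rho between plus and minus counts was 0.321 in MeDIP and 0.496 in hMeDIP, 0.589 in input, 0.232 at 600 mM and 0.830 at 800 mM.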

How the data were processed

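The deposited files give read counts of 1 per line for each of 5 libraries, with position, strand and a column 4 that no source used here explains. The submitters' processing notes name BWA 0.5.8 and mm9; no source used here says how reads of equal position were reduced. Reads were 35 bp long, and library totals ran from 7539403 to 18722723. Starts were read as 1-based, since reads with a 0 in column 4 start between 1 and 16265, and the genome length is the last base under such a read. Reads were counted once per position and strand, assigned by midpoint to windows of 50 bp and divided by the total on chromosomes 1 to 19.

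With 1 library per group no test was made. Intervals are exact 95% ones, Clopper-Pearson for shares and on the conditional binomial for ratios. A count of 0 was taken to allow 3 reads. Autosomal windows and blocks of 16299 bp (at least 20 input reads, or 300 reads of the library for strand shares) gave the background. The Poisson estimate took −ln(1 − occupied share) reads per place in each window and strand, with a full window set to 0.5 places short of full; for strand shares it was taken over the whole strand. Tested on simulated counts without the cap, 95.4% of 2000 intervals held the true ratio. In simulated libraries of 200 windows with 3 reads per place, the cap kept 31.67% of reads and the estimate returned 106.1%. Those reads were drawn at a single rate, as the estimate assumes. Neither simulation tests the intervals of capped counts, or the estimate where rates are uneven within a window.

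Named windows are the 3 highest and 3 lowest by ratio to input per library among those with at least 20 input reads, ties going to the lower position, plus runs of 3 or more windows at 1.5 times, or 1/1.5 of, the library's ratio over the whole genome. Run edges, spans of column 4 and strand splits were chosen after seeing the data, and all members and lists with earlier results of these data known. No annotation of mm9 was used here, so the planned description by gene was not made, and mitochondrial sequence was not used. Python 3.11.15, NumPy 2.4.6 and SciPy 1.17.1 were used.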

Additional observations from a re-analysis of the deposited data

How the results depend on the processing

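Ratios to input below are in the order 600 mM eluate, 800 mM eluate, MeDIP, hMeDIP, and a value is left out where it stayed within the interval given in the report. With the median autosomal block set to 1 they were 0.0737, 1.22, 0.382 and 0.553, so the 800 mM eluate went from below to above input. Chosen after seeing the data, that scaling gave 0.629 for it without its high runs, 0.575 without windows rich in column 4 and 0.829 with the Poisson estimate, and its plus share was 44.9% without the high runs. With the Poisson estimate they were 0.0174, 0.521, 0.125 and 0.326, the 800 to 600 mM ratio 29.97 and hMeDIP over MeDIP 2.61. The plus share of hMeDIP was 70.1% with the estimate taken at a single rate over each whole strand, empty stretch included, and not per window. hMeDIP filled every plus strand place in 20 windows and every minus strand place in none. No plus share was computed per window, so the 70.1% does not show how far the cap bears on this share. Without reads with a 1 in column 4, the 800 mM eluate was at 0.6597, hMeDIP at 0.433 and the eluate ratio at 12.8. Without windows in which such reads exceed 10% (186 windows stayed, 80 of them with 20 input reads), the 800 mM eluate was at 0.361, MeDIP at 0.268, hMeDIP at 0.368, the eluate ratio at 7.59 and the antibody ratio at 1.37. Without the first and last 1000 bp the 800 mM eluate was at 0.854, MeDIP at 0.341, hMeDIP at 0.487 and the eluate ratio at 17.7. All deposited reads put the 800 mM eluate at 0.842, and scaling to every other chromosome at 0.791. Chosen after seeing the data, the plus strand alone gave 0.708, 0.372 and 0.6025 for the last 3 libraries and 1.62 for the antibodies, the minus strand alone 0.824, 0.239, 0.290 and 1.22, and leaving out the high runs of the 800 mM eluate gave 0.396 for it, 0.433 for hMeDIP and 8.55 for the eluates. The cause of these shifts was not tested, other than the cap and the reads left out by construction. Of 103 values, 57 planned and 6 added ones stayed within the interval or within 1.5 times, among them the share of low windows under every window size and the plus shares of the other libraries. The order of the 4 libraries in ratio to input held under each setting except without windows rich in column 4, where hMeDIP was above the 800 mM eluate, and without the high runs, where the same was so. The 600 mM eluate had a median of 2 mitochondrial reads per window at 10220519 autosomal reads, close to the 10260899 of MeDIP, and the cap limits input and the plus strand of hMeDIP. No paired analysis was possible because each group has 1 library.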

Other observations

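Input was the only library with reads inside the empty stretch, 3 on the plus and 7 on the minus strand at starts 9795 to 9814. Input also held 2 reads that reach past an end of the linear reference, both with a 1 in column 4. No mitochondrial or autosomal place carried 2 reads in MeDIP, hMeDIP or input, while 113356 autosomal places did at 600 mM and 98420 at 800 mM.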
